A study of Mus musculus with 62 samples.

Results

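The genes Six2, Six4, Six5, Eya1, Eya4, Tbx15, Sox6 and Prox1 encode regulators of muscle fiber type, and their H3K27ac and H3K4me2 landscapes were followed across mouse skeletal muscles. A peak belonged to a gene when the authors' annotation named it as the gene with the nearest start site. By this rule 893 of 601616 peaks in 20 lists were members, of which 442 were among the 297760 peaks of the 8 H3K27ac lists and 425 among the 298522 peaks of the 8 H3K4me2 lists. The remaining 26 were in the lists of H3K27ac regions that changed with wheel running or with the Pgc1a transgene. H3K27ac (acetylation of histone H3 at lysine 27) marks active enhancers and promoters, and H3K4me2 (dimethylation at lysine 4) marks enhancers and promoters whether or not they are active.

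The labels give the strain C57BL/6 for all 62 libraries of the series, and per the study's methods the mice were male. The 4 muscles of sedentary wild-type mice were the extensor digitorum longus (EDL), the quadriceps (Quad), the soleus (Sol) and the diaphragm (Dia). EDL, Sol and Dia samples each pooled 3 animals. The other 4 groups were all quadriceps. Ex mice had a running wheel for 4 weeks from 8 weeks of age and Sed mice were their sedentary controls. mTg mice carried a Pgc1a transgene under the muscle creatine kinase promoter, which is active in muscle fibers, and Wt mice were their littermates. Each group had 2 replicates per mark. Whole muscle was used, so in these samples fewer cells of a type and less signal per cell cannot be told apart.

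Mammalian fast fibers range from glycolytic to oxidative, and slow fibers are oxidative. The proteins of Six2, Six4, Six5 and their relatives are homeodomain factors that bind MEF3 elements, and EYA proteins are coactivators of this family. Together they drive the fast program. TBX15 is a T-box factor of fast glycolytic fibers, SOX6 is a repressor of slow fiber genes, and PROX1 is a homeobox factor needed for slow fiber genes and for the identity of lymphatic endothelium.

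The sequences below are examples and leave out the Sox6 regions that fell most in Ex. They are accessible windows of untreated Quad (195 bases, the unit of the deposited list) inside H3K27ac regions that fell or rose, and the 250 bases before 2 start sites with both marks in some groups and H3K4me2 alone in others. All are from RefSeq on GRCm38.p6 (mm10). Windows are on the plus strand and the upstream sequences are on the minus strand, that of the gene. Capitals mark the motifs searched.
Sox6 window downstream of the gene, chr7:115466923-115467117: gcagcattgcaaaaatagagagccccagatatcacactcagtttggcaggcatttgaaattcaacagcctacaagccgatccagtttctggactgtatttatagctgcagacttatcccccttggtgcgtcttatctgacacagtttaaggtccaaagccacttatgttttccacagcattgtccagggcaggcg
Sox6 intronic window, chr7:115807921-115808115: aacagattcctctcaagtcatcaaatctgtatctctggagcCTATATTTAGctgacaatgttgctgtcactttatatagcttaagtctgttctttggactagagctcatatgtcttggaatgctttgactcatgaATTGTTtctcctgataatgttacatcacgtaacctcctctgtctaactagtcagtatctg
Sox6 intronic window, chr7:116012547-116012741: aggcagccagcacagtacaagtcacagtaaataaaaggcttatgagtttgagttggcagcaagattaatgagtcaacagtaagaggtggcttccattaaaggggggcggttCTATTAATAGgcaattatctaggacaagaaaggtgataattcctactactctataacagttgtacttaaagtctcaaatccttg
Eya4 intronic window, chr10:23178684-23178878: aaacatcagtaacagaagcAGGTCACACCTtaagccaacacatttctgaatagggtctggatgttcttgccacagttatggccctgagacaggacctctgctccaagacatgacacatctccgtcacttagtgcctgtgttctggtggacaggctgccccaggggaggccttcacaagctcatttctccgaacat
Eya1 intronic window, chr1:14190042-14190236: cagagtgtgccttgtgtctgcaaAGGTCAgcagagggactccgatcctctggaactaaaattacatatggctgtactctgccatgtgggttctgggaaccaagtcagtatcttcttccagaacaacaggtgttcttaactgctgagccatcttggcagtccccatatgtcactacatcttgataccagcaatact
Tbx15 intergenic window, chr3:99531003-99531197: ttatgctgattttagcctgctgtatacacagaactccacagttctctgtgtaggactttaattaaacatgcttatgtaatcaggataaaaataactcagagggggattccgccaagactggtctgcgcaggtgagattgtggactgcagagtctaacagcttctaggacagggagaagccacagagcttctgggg
Prox1 upstream, chr1:190170828-190171077: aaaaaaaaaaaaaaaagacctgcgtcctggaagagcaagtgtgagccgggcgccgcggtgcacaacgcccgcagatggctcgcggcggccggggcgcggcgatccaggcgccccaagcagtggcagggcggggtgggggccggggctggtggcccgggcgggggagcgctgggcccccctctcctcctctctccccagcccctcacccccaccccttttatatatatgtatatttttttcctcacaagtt
Six2 upstream, chr17:85688255-85688504: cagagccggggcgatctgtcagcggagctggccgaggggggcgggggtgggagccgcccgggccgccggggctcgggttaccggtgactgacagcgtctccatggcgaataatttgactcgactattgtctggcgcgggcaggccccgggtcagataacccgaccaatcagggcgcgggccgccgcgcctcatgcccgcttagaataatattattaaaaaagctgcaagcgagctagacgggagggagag

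The motifs were searched on both strands. The MEF3 element TCAGGTTTC was in 0 of the 25 accessible windows of changed member regions and in 0.606% of all 44911 windows. The SOX element AACAAT was in 1 member window, against 6.16% of all, and the MEF2 element was in 2, against 2.07%. The T-box element AGGTGTGA was in 1 (0.508% of all), the E-box CAGCTG in 3 (21.1%) and the nuclear receptor element AGGTCA in 7 (15.97%). All member windows with a MEF2, SOX or T-box match are among those printed. In the Eya4 window the nuclear receptor element and the reverse complement of the T-box element overlap. These matches are letters in a window and no binding was measured.

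Library depth was 6.41 to 24.2 M tags over 32 libraries, and the lists held 27527 to 49010 peaks, so peak counts of different groups are not equally sensitive. Peaks in the H3K27ac lists of members were annotated to introns more often than peaks of all genes (64.3% against 49.4%) and to promoters less often (3.17% against 12.5%). Each peak has 1 annotation, so a wide peak over a start site can count as intronic. Six4 had 0 promoter peaks and Eya4 had 1, yet the 250 bases upstream of each were under H3K27ac in all 8 groups. Sox6 alone had 154 of the 442 peaks. Accessible Quad windows overlapped 45 of the 113 merged member H3K27ac regions (39.8%, against 47.9% of all 63441). Peaks of the coactivator subunit MED1 overlapped 1.77% of member regions in Sol (3.36% of all), 0.885% in Quad (2.77%), 0.885% in Dia (2.38%) and none in EDL (0.698%), from lists of 834 to 4070 peaks with 1 library each. Those of NFAT in Sol, a list of 39661 peaks from 1 library, overlapped 3.54% (3.34% of all), and the 485 NFAT peaks of Quad overlapped none.

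The first question was how the regions of these genes differ between fast muscles (EDL and Quad) and muscles with more slow and oxidative fibers (Sol and Dia). Of the 113 merged member H3K27ac regions, 35 were present in EDL or Quad but in neither Sol nor Dia (31.0%, against 18.8% of all merged regions), and 12 showed the opposite pattern (10.6%, against 10.99%). Regions in all 8 lists numbered 19 (16.8%, against 21.8%). The pattern of EDL or Quad alone held for 4 of 5 Six2 regions, 5 of 9 Eya1 regions, 11 of 22 Eya4 regions and 11 of 45 Sox6 regions. Of the 12 regions of Sol or Dia alone, 9 belonged to Prox1, which had 10 regions in all.

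**Figure D1:**
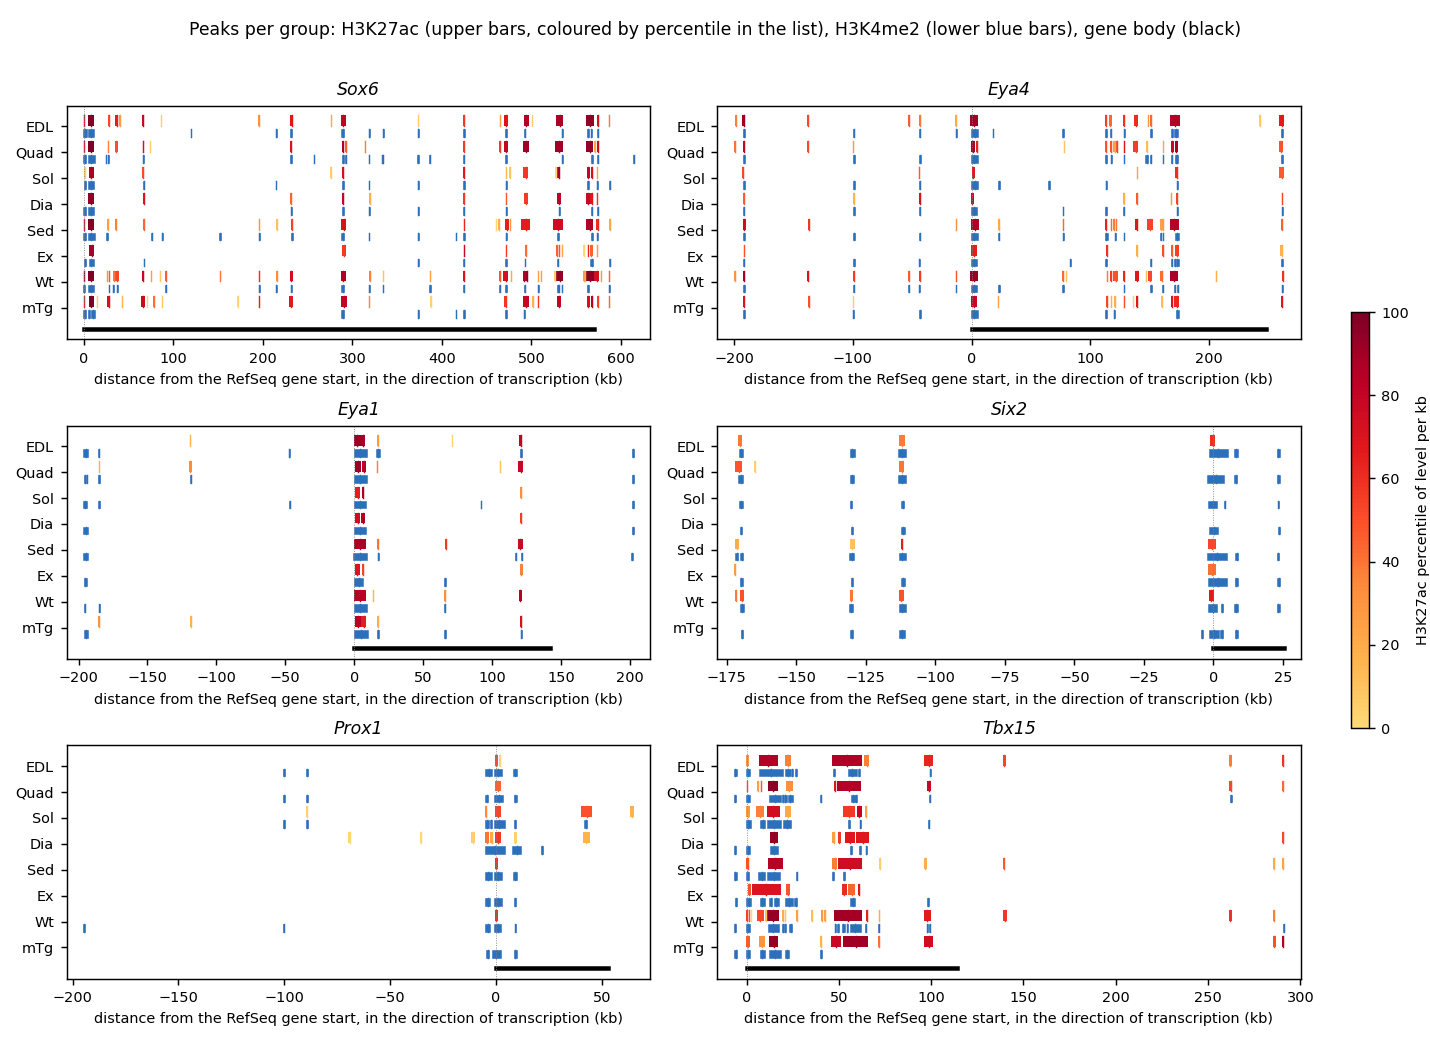
Peaks of 6 of the genes in each group, by distance in kb from the RefSeq gene start in the direction of transcription. Upper bars are H3K27ac peaks coloured by the percentile of their level per kb in the list, lower blue bars are H3K4me2 peaks, narrow peaks are drawn at a minimum line width, and the black bar is the gene. Prox1 shows H3K27ac away from its start site in Sol and Dia and in no other group, whereas Six2 shows none in Sol, Dia or mTg.

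Sox6 had the most H3K27ac peaks of the 8 genes, or as many as Eya4 in Quad, in each list. There were 21 in EDL, 18 in Quad, 14 in Sol, 12 in Dia, 19 in Sed, 12 in Ex, 34 in Wt and 24 in mTg. Its strongest peak stood at a median percentile of 99.0 by level per kb over the 8 lists (88.6 to 99.6). In 7 groups this was the same region, chr7:116029079-116035557 in Quad, which spans an alternative start site. In Sol it was an intronic peak at chr7:115508674-115512140. Eya4 had 16 H3K27ac peaks in EDL and 18 in Quad, but 6 in Sol and 9 in Dia. Tbx15, whose peaks were as wide as 15846 bp, had 9, 10, 7 and 6 in the same order.

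Levels per gene were the sum over its peaks in a library, on a log2 scale and centred on the median of genes with a peak in every list. The authors normalized every list on its own, and for that reason no test was run across lists. A gene or region was called when its group means were more than 2-fold apart and no replicate of either group reached the range of the other.

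Sox6, the repressor of slow fiber genes, had levels of 4.12 and 4.10 in EDL and 4.31 and 3.98 in Quad, against 2.89 and 2.68 in Sol and 2.99 and 3.24 in Dia. Every EDL and Quad replicate was above every Sol and Dia replicate. Eya4, a coactivator of the homeodomain family, was at 3.26 and 2.93 in EDL, 2.83 and 2.33 in Quad, 1.44 and 0.94 in Sol and 1.05 and 0.96 in Dia, again without overlap. Eya1, the other EYA coactivator, was at 1.76 and 1.74 in EDL and 1.98 and 1.72 in Quad, against 0.86 and 0.52 in Sol and 1.08 and 1.08 in Dia. Tbx15 was at 3.22 and 3.35 in EDL, 2.98 and 3.05 in Quad, 2.27 and 2.22 in Sol and 2.36 and 2.42 in Dia.

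Prox1 had the reverse order. Its H3K27ac level was -2.26 and -2.31 in EDL and -1.82 and -2.02 in Quad, against 0.65 and 0.54 in Sol and 0.40 and 0.18 in Dia. It had 2 peaks covering 2.28 kb in EDL and 1 covering 2.45 kb in Quad, but 5 covering 11.6 kb in Sol and 8 covering 14.2 kb in Dia. Because PROX1 also marks lymphatic endothelium, the share of the summed H3K27ac level taken by 4 lymphatic marker genes was computed. It was 0.00354% and 0.00407% in Sol, 0.00377% and 0.00361% in EDL, 0.00685% and 0.00705% in Quad and 0.0174% and 0.0155% in Dia. In Ex, where Prox1 had no H3K27ac peak, it was 0.0143% and 0.0157%. The part of lymphatic cells in the Prox1 level was not tested.

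Six4 and Six5 varied less. Six4 was at 1.29 and 1.24 in EDL, 1.14 and 0.80 in Quad, 1.18 and 1.08 in Sol and 1.29 and 1.44 in Dia, and it was not called in any muscle pair. Its Quad and Sol replicates overlapped, as did those of EDL and Dia. Six5 lay between -1.31 and -0.49 in the 8 libraries of these muscles. Six2, which had 3 H3K27ac peaks in both EDL and Quad, had none in Sol or Dia.

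**Figure D2:**
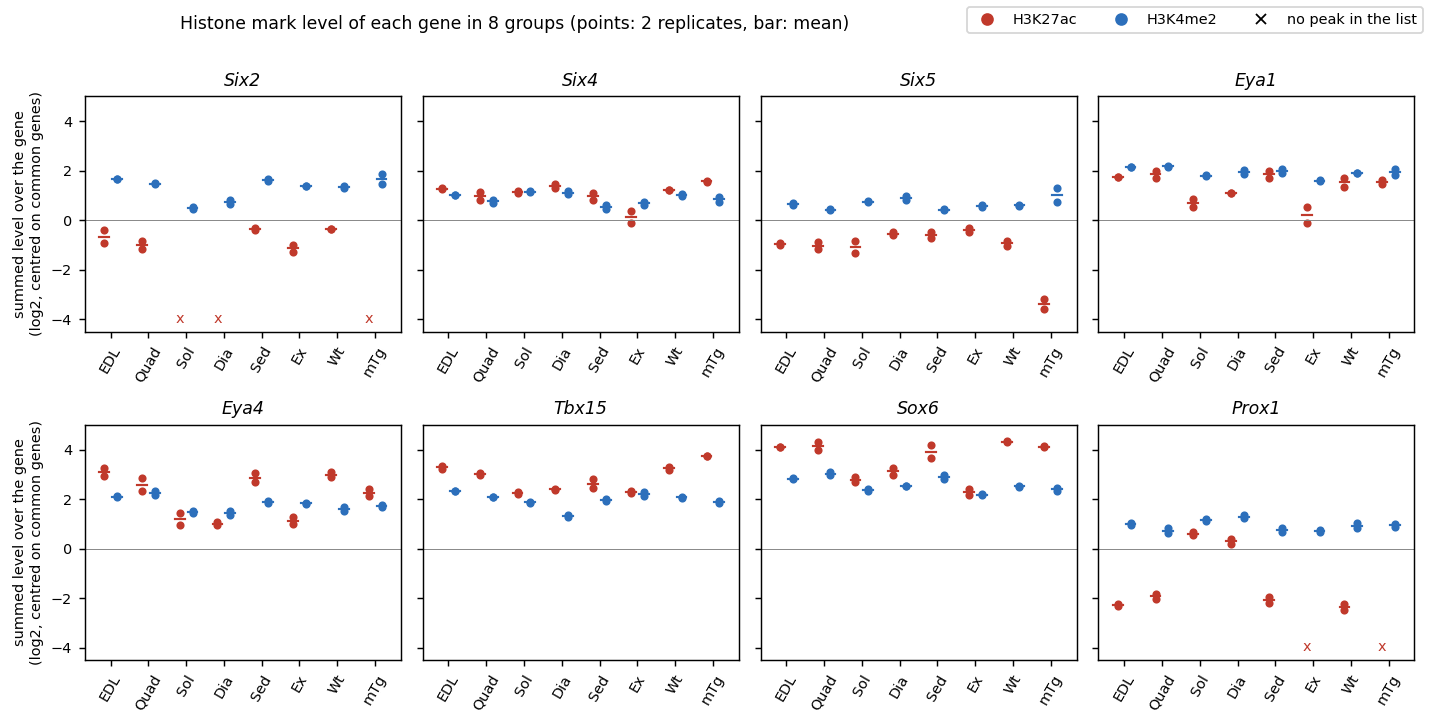
Summed level of each gene in the 8 groups (log2, centred on genes with a peak in every list of the mark), with both replicates as points and their mean as a bar. Sox6 and Eya4 H3K27ac is lower in Sol, Dia and Ex than in EDL, Quad, Sed and Wt, Prox1 is higher in Sol and Dia, and H3K4me2 varies less.

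By the call rule, 4 of 7 genes differed between Sol and Quad, where 18.9% of all genes were called. Eya1 (log2 difference -1.23), Eya4 (-1.46) and Sox6 (-1.43) were lower in Sol and Prox1 (2.45) was higher. Between Sol and EDL 5 of 7 were called (15.2% of all genes), with Tbx15 (-1.096) added to Eya1 (-1.12), Eya4 (-1.96), Sox6 (-1.38) and Prox1 (2.82). Between Dia and Quad (20.4% of all genes) Eya4 (-1.63), Sox6 (-1.09) and Prox1 (2.16) were called, and between Dia and EDL (16.6%) the same 3 genes (-2.11, -1.01 and 2.55). The Sox6 call between Dia and Quad was lost without centring (-0.63), without Quad replicate 1 (-0.91) and without Dia replicate 1 (-0.95), and that between Dia and EDL without Dia replicate 1 (-0.89). The Eya1 call between Sol and EDL was lost without Sol replicate 2 (-0.96). For comparison between Sol and Quad, 7 of 8 measured slow fiber genes were higher and none lower in Sol, 5 of 15 fast fiber genes were lower and 1 higher, and of 12 relatives and partners of the members 1 was higher and 1 lower. No member was called between Sol and Dia (12.5%) or between EDL and Quad (10.6%).

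These sums run over every peak called, so they move with the number of peaks. With only the strongest peak of each gene, 2 of the 15 calls over the 6 muscle pairs remained, both Sox6 (log2 difference -1.07 for Sol and Quad and -1.14 for Sol and EDL). The strongest peak was picked in each list, so it could be a different region in each group. This was so for Sox6 in both of these pairs. For single regions, peaks of a pair of lists were matched when each covered 50% or more of the other, and were compared per kb. Called member regions numbered 3 of 18 between Sol and Quad (3.74% of all regions), 6 of 17 between Sol and EDL (2.88%), 3 of 19 between Dia and Quad (4.26%), 2 of 16 between Dia and EDL (3.11%), 1 of 24 between Sol and Dia (1.65%) and 0 of 33 between EDL and Quad (0.644%). With an overlap of 80% the 15 calls became 7.

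The promoter of Sox6 at chr7:116039241-116040138 showed the widest gap. Its centred level per kb was -1.85 and -1.92 in Sol against 0.35 and -0.40 in Quad, a log2 difference of -1.91, and the difference from EDL was -2.11. The Sox6 region over the alternative start site, chr7:116029236-116035233, was lower in Sol than in Quad by a log2 difference of -1.18 and than in EDL by -1.29. An intronic Sox6 region, chr7:115544426-115549838, differed by -1.14 between Sol and Quad and by -1.08 between Sol and EDL. Its Dia counterpart differed by -1.17 from Quad and -1.09 from EDL. Eya1 regions at chr1:14306634-14310448 and chr1:14189385-14190822 were lower in Sol than EDL (-1.11 and -1.48), the latter holding the printed Eya1 window. Eya4 was lower at chr10:23542113-23543853 (Sol and EDL, -1.42), at chr10:23177000-23178620 (Dia and Quad, -1.14) and at chr10:23222268-23223124 (Dia and Quad, -1.39, and Dia and EDL, -1.21). The single region called between Sol and Dia was an intronic Prox1 region, chr1:190125334-190130517, higher in Sol by 1.06.

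H3K4me2 differed less between the muscles. Prox1 and Six2 had H3K4me2 peaks in all 8 lists. The printed 250 bases upstream of Prox1 were under an H3K4me2 peak in 8 groups and under an H3K27ac peak in 6, all but Ex and mTg. The 250 bases before another Prox1 start site, chr1:190169516-190169765, were under H3K4me2 in 8 groups and under H3K27ac in 3 (Quad, Sol and Dia). The printed bases upstream of Six2 were under H3K4me2 in 8 groups and under H3K27ac in 4 (EDL, Sed, Ex and Wt). Prox1 H3K4me2 levels were 0.97 and 1.03 in EDL and 0.81 and 0.64 in Quad, against 1.102 and 1.21 in Sol and 1.23 and 1.35 in Dia. At the gene level Six2 was lower in Sol than in Quad (log2 difference -1.02, with 8.47% of all genes called) and than in EDL (-1.18, with 5.6%), and Tbx15 was lower in Dia than in EDL (-1.01, with 6.99%). The Six2 call between Sol and Quad was lost without centring (-0.99), without Quad replicate 1 (-0.999) and without Sol replicate 1 (-0.98), and the Tbx15 call without EDL replicate 1 (-0.99) or Dia replicate 1 (-0.97). Of single regions, 4 of 22 were called between Dia and Quad (1.58% of all), all lower in Dia, of which 3 were Eya4 and 1 was Sox6. None was called of 28 between Sol and Quad (1.88%), 29 between Sol and EDL (0.626%), 25 between Dia and EDL (0.678%), 28 between Sol and Dia (0.439%) or 40 between EDL and Quad (0.453%).

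The untreated quadriceps groups served as a comparison without treatment. No member gene was called in H3K27ac between Quad and Sed (11.4% of all genes), Quad and Wt (16.3%) or Sed and Wt (13.2%). No member H3K27ac region was called of 28 between Quad and Sed (1.07%), 28 between Quad and Wt (1.36%) or 35 between Sed and Wt (0.495%), although 5 were called over the 3 pairs without centring. In H3K4me2, 0 of 31 regions were called between Quad and Sed (0.739%), 2 of 36 between Quad and Wt (2.69%) and 1 of 28 between Sed and Wt (1.78%), in Eya4 and Sox6.

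H3K27ac was lower in Ex than in Sed at Eya1, Eya4 and Sox6. The list of H3K27ac regions lower in Ex than in Sed (hypoacetylated exercise-modified regions, EMRs) held 19 member regions of 2280, with 3 for Eya1, 8 for Eya4 and 8 for Sox6. The list of 382 hyperacetylated EMRs held none. Of the 58 merged Sed and Ex H3K27ac regions of the members, 32.8% were hypoacetylated EMRs (3 of 4 for Eya1, 8 of 16 for Eya4 and 8 of 20 for Sox6), against 5.43% of all merged regions. Hyperacetylated EMRs were 0.909% of all. None of the 10 Tbx15, 4 Six2, 2 Six4, 1 Six5 or 1 Prox1 regions was an EMR.

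Within the hypoacetylated list the 4 libraries had been normalized together, and limma with Benjamini-Hochberg adjustment over the list called 18 of the 19 regions (99.7% of the list). The authors chose these regions for differing, so the test is not independent evidence that they differ. limma gave all 19 regions the same SE. Their p-values therefore follow the size of the difference and not the replicate spread of each region. The median log2 difference was -0.86 for the members and -0.76 for the list. In 14 of the 19 regions an accessible Quad window was present (73.7%, against 77.5% of the list), and 14 were intronic. Sol H3K27ac peaks overlapped 11 of the 19 regions and 56.0% of the whole hypoacetylated list.

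The Eya4 intron region chr10:23198201-23203383 fell the most, with deposited log2 levels of 8.08 and 8.20 in Sed and 7.08 and 6.69 in Ex. Its log2 difference was -1.25 (SE 0.21, limma adjusted p = 2.14e-06). The Sox6 intron region chr7:115505838-115516266 was at 10.16 and 9.69 in Sed and 8.95 and 8.83 in Ex, a difference of -1.04 (limma adjusted p = 3.83e-05). The Eya1 intron region chr1:14188725-14192088, which holds the printed Eya1 window, was at 8.34 and 8.31 in Sed and 7.55 and 7.05 in Ex, a difference of -1.02 (limma adjusted p = 5.08e-05). The Eya4 region chr10:23176017-23183920, with the printed Eya4 window, differed by -0.99, and the Sox6 region chr7:115806932-115809554, with the printed MEF2 and SOX elements, by -0.80. In each the Ex replicates lay below both Sed replicates. The Eya4 region chr10:23363365-23363865 was the exception to the calls, at 4.12 and 4.28 in Sed and 3.80 and 3.76 in Ex (difference -0.42, limma adjusted p = 0.0531).

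**Figure D3:**
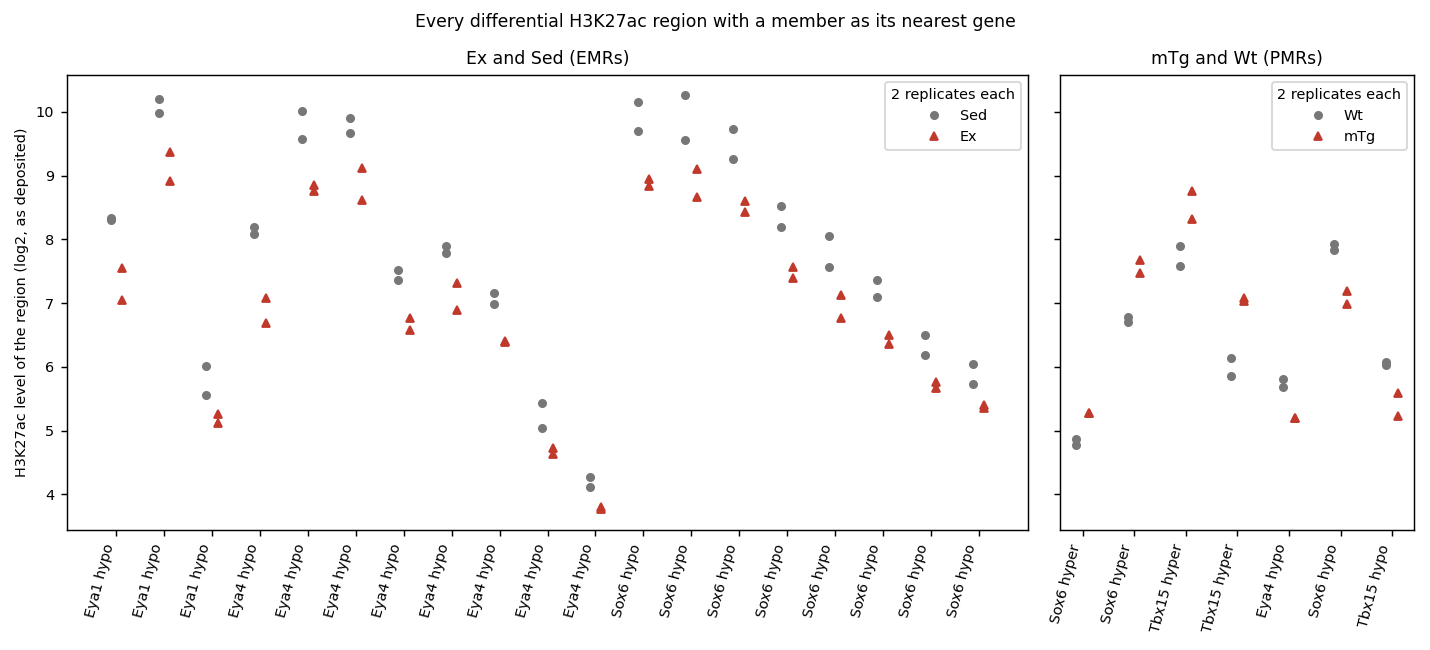
Deposited log2 H3K27ac level of each of the 26 differential member regions, with both replicates of the control group (grey circles) and of the treated group (red triangles). All 19 exercise regions (EMRs) lie lower in Ex, and of the 7 transgene regions (PMRs) 4 lie higher and 3 lower in mTg.

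The gene sums moved the same way. Sox6 was at 4.17 and 3.64 in Sed and 2.41 and 2.18 in Ex, with 19 peaks over 68.9 kb against 12 over 28.4 kb. Of 7 genes, Eya1 (log2 difference -1.67), Eya4 (-1.77) and Sox6 (-1.64) were called, where 21.6% of all genes were. Six4 (-0.87), Six2 (-0.82), Tbx15 (-0.35) and Six5 (0.17) were not. With the strongest peak alone none was called. Of 13 matched regions 2 were called (3.17% of all), in Eya1 at chr1:14188857-14190969 (-1.17) and in Eya4 at chr10:23210954-23212734 (-1.28), and with an overlap of 80% none was. Without replicate 2 of Sed the count was 4, and without replicate 2 of Ex it was 1. In H3K4me2 none of 28 matched regions (0.0925% of all) and none of 8 genes (5.53%) was called.

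In H3K27ac, marker shares moved with this result. The share of the summed H3K27ac level taken by 6 skeletal muscle genes was 0.181% and 0.154% in Sed and 0.0972% and 0.0824% in Ex, that of 16 fast fiber genes was 0.381% and 0.343% against 0.205% and 0.180%, and that of 4 fibroblast genes was 0.0319% and 0.0426% against 0.0819% and 0.106%. The shares of 4 macrophage genes (0.00357% and 0.00422% in Sed, 0.0109% and 0.0137% in Ex), 4 lymphatic genes (0.00557% and 0.00754%, 0.0143% and 0.0157%), 4 blood endothelium genes (0.0517% and 0.0528%, 0.0724% and 0.0743%) and 3 adipocyte genes (0.0032% and 0.00357%, 0.00717% and 0.00817%) were also higher in Ex. That of 3 Schwann cell genes was 0% in both Sed replicates and 0.00204% and 0.00275% in Ex. That of 3 satellite cell genes was lower (0.0207% and 0.0197%, 0.0145% and 0.0148%). The 8 members went from 0.217% and 0.184% to 0.102% and 0.0860%. All 6 muscle genes and all 4 fibroblast genes had peaks in both groups, whereas the 3 cardiac genes had none. In H3K4me2 the skeletal muscle share was 0.0801% and 0.0991% in Sed and 0.0762% and 0.0739% in Ex. The fast fiber share was 0.168% and 0.201% against 0.159% and 0.152%, and the fibroblast share 0.0454% and 0.0418% against 0.0540% and 0.0549%. The macrophage share was 0.00292% and 0.00290% against 0.00290% and 0.00314%, and the blood endothelium share 0.0373% and 0.0341% against 0.0386% and 0.0385%. The part of cell composition in the lower member levels was not tested here. By qPCR of marker RNA in quadriceps, the paper reported unchanged cell composition in Ex. Of the 16 fast fiber genes, chosen with results known, 15 had an H3K27ac peak in Sed. Hypoacetylated EMRs were found for 6 (Actn3, Myh1, Myh4, Myl1, Pfkm and Pvalb). Only 6 of the 10 slow fiber genes had a peak in Sed, and 1 had a hypoacetylated EMR (Myoz2), so the 2 lists are not alike. Of 15 relatives and partners of the members, Sobp and Pax3 had 2 hypoacetylated EMRs each and Six6 had 1 hyperacetylated EMR.

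**Figure D4:**
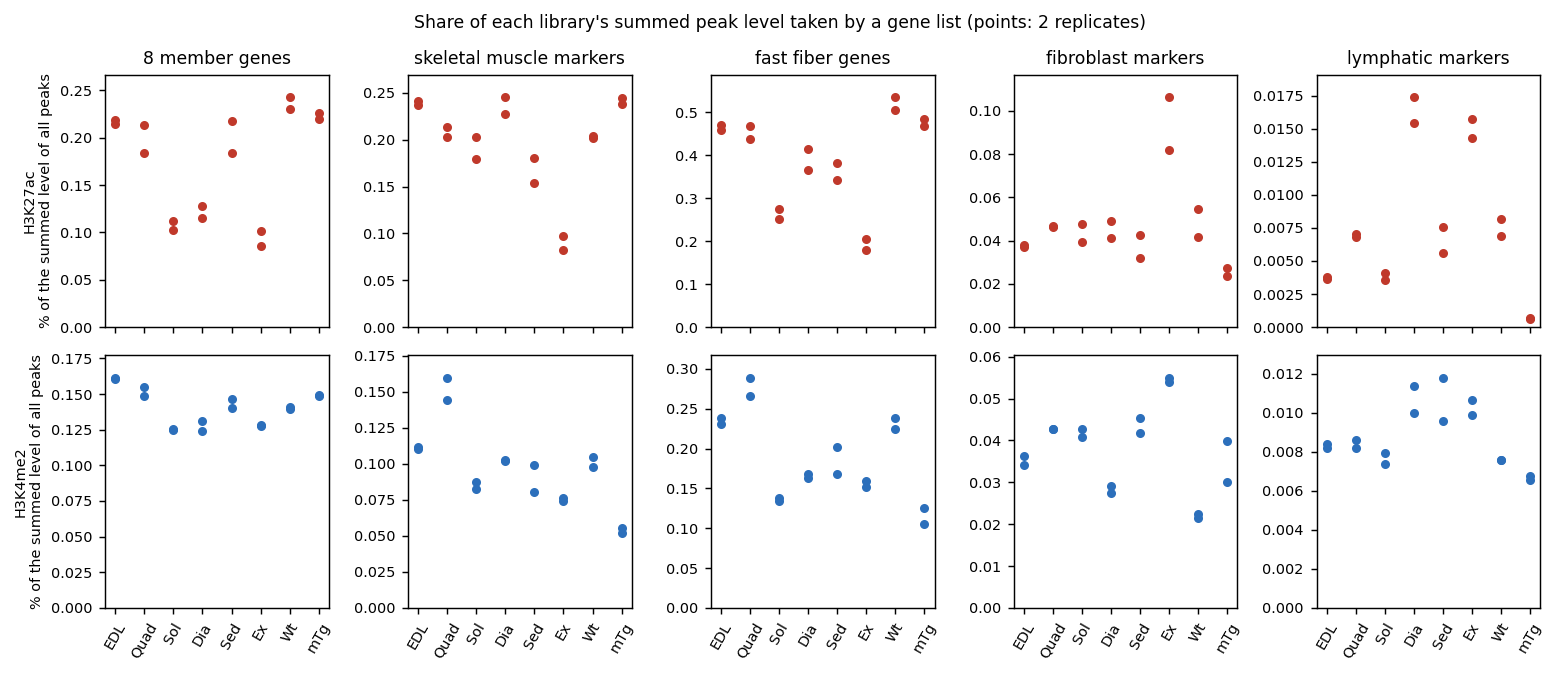
Share of the summed peak level of each library, in percent, taken by the 8 member genes and by 4 marker lists, with both replicates as points. Member, skeletal muscle and fast fiber H3K27ac shares are lower in Ex than in Sed, and the fibroblast share is higher.

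In mTg muscle 7 of 101 member regions were in the lists of changed regions, in Tbx15, Sox6 and Eya4, and the other 5 genes had none. The hyperacetylated list (PGC1α-modified regions, PMRs) held 4 member regions, 2 of Tbx15 and 2 of Sox6, and the hypoacetylated list held 3, of Eya4, Sox6 and Tbx15. Of the merged Wt and mTg regions of the members, 3.96% were hyperacetylated PMRs and 2.97% hypoacetylated PMRs, against 3.27% and 1.51% of all regions. limma called all 7, as it did 100% of each list.

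The intergenic Tbx15 region chr3:99530353-99531633 was at 5.85 and 6.13 in Wt and 7.02 and 7.08 in mTg, a log2 difference of 1.06 (SE 0.13, limma adjusted p = 9.74e-08). The Tbx15 intron region chr3:99336526-99341299 was higher by 0.79, and the Sox6 intron region chr7:116011648-116014763, with a MEF2 element in the printed window, by 0.83. The Sox6 region downstream of the gene, chr7:115465761-115470379, was at 7.92 and 7.84 in Wt and 6.98 and 7.20 in mTg (difference -0.79, limma adjusted p = 1.73e-05). It overlapped the hypoacetylated EMR chr7:115465120-115468487, which was at 8.05 and 7.57 in Sed and 7.12 and 6.77 in Ex (difference -0.86), and both held the first printed Sox6 window. No other member region was in an EMR list and a PMR list. Of the relatives and partners, Sobp alone had PMRs, 1 hyperacetylated and 2 hypoacetylated.

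By gene sums, 1 of 6 genes was called between mTg and Wt, where 23.3% of all genes were. Six5 was at -0.84 and -1.03 in Wt and -3.18 and -3.60 in mTg (log2 difference -2.49). Its single Wt peak covered 3.01 kb and its 2 mTg peaks covered 1.15 kb, and with the strongest peak alone it was not called. Six2 and Prox1 had no H3K27ac peak in mTg, against 5 and 1 in Wt. The H3K27ac share of the lymphatic genes was 0.00818% and 0.00685% in Wt and 0.000647% and 0.000711% in mTg, and that of the fibroblast genes 0.0546% and 0.0416% against 0.0235% and 0.0272%. The share of the skeletal muscle genes was 0.204% and 0.202% in Wt and 0.238% and 0.245% in mTg. The part of cell composition in the absence of the Six2 and Prox1 peaks from mTg was not tested. By qPCR the paper reported higher macrophage and endothelial marker RNA in mTg quadriceps. Here the H3K27ac share of the macrophage genes was 0.0117% and 0.00888% in Wt and lower in mTg, at 0.00567% and 0.00690%. The share of the blood endothelium genes was 0.0318% and 0.0277% in Wt and higher in mTg, at 0.0353% and 0.0394%. Of 25 matched regions 2 were called (4.64% of all), both in Sox6, with chr7:115475076-115479178 lower (-1.003) and chr7:115532670-115533435 higher (1.09). Neither was called without replicate 2 of mTg. In H3K4me2, 1 of 26 regions was called (0.724% of all), a Six2 region at chr17:85684898-85685802 that was higher by 1.29, and no gene was (9.61% of all). The H3K4me2 libraries labelled mTg had 6.41 and 14.1 M tags and the shortest list, of 27527 peaks. They also had a low share of skeletal muscle genes (0.0521% and 0.0552%, against 0.0979% and 0.104% in Wt). The part of depth and of this share was not tested.

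Over the 16 H3K27ac libraries, the centred gene levels of Eya1, Eya4 and Sox6 followed each other, with Pearson's r of 0.93 for Sox6 and Eya1, 0.89 for Sox6 and Eya4 and 0.85 for Eya1 and Eya4. Tbx15 was at 0.82 with Sox6 and 0.64 with Eya1. Six5 ranged from -0.73 (with Tbx15) to -0.17 (with Eya4) against the other members compared. The libraries share groups and peak calls, so these are descriptions. Among 9524 other genes with a peak in each list, those most like Sox6 were Car1 (0.99), St8sia5 (0.98) and Arl3 (0.98). For Eya1 they were Zdhhc17, Krba1 and Rab10 (0.96 to 0.97), for Eya4 Mir6412, Uts2r and Mafa (0.96 to 0.97), and for Tbx15 Ctsf, Dand5 and Bhlhe41 (0.94 to 0.95). Those most like Six5 were Tuba1a, Cmip and Ccdc9 (0.97).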

How the data were processed

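Histone mark ChIP-seq was analysed from 32 of the 62 libraries of the series. Per the methods and labels, the authors aligned reads to mm10 with Bowtie, kept 1 tag per position with HOMER, and called peaks over both replicates of a group against input at 2-fold and an FDR of 0.05. The deposited tag columns are log2 values, taken to be the regularized logarithm and computed within each list, so tests were run only in the 4 differential lists. The authors' p-value columns were used only as a filter, and the deposited peak score and fold over input only for ranking and filtering. The deposited ATAC signal comes from pooled libraries. The exercise and transgene ATAC lists are of another build and were not used here, nor were the authors' differential fold changes. In all, 18 columns of input tags were left out.

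Groups were taken from the sample titles. Tests were two-sided with limma 3.58.1 in R 4.3.3, over all regions of a list, and were tested on simulated data. Replicates are biological duplicates per the methods. Adjusted p-values rest on the spread between 2 samples a group, which limma pools over the regions of a list. Merged regions share at least 1 bp. Differences between groups were recentred on the median over genes or regions shared by the pair. All members are named, with the 3 genes most like each member that had an H3K27ac peak in all 8 lists. Those of Six4 are not reported here. The alternatives were a stricter adjusted p (0.001), a 4-fold enrichment, equal list sizes, an overlap of 80%, no division by width, no centring, the strongest peak alone, a replicate block and each replicate left out. The members and lists were chosen with earlier results of these data known.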

Additional observations from a re-analysis of the deposited data

How the results depend on the processing

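Peak counts fell at a stricter authors' adjusted p (0.001), from 442 to 234 member H3K27ac peaks and from 425 to 223 H3K4me2 peaks. At that threshold the H3K27ac peak difference turned to 1 for Six5 (Wt minus mTg), -1 for Tbx15 (Sed minus Ex) and -2 for Tbx15 (Wt minus mTg), and the H3K4me2 difference to 1 for Prox1 (Quad minus Sol). With equal numbers of top peaks the H3K4me2 difference turned to -2 for Eya4 (Sed minus Ex), -2 for Tbx15 (Quad minus Sol) and -1 for Prox1 (Wt minus mTg). The cause was not tested.

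With an overlap of 80%, called H3K27ac regions went from 15 to 7 over the muscle pairs and from 2 to 0 for Ex and Sed and for mTg and Wt, and called H3K4me2 regions from 4 to 2 over the muscle pairs, from 1 to 0 for mTg and Wt and from 3 to 0 over the untreated pairs. Fewer regions are matched at that overlap. Without division by width the H3K27ac counts were 23, 5, 7 and 3 (muscle, Ex, mTg and untreated pairs), and the H3K4me2 counts 11 for muscles and 2 for mTg. Without centring, the H3K27ac regions of untreated pairs were 5 and genes 2, Ex genes 5, and H3K4me2 regions 7 for muscles, 0 for mTg and 7 for untreated pairs, with 7 muscle genes. With the strongest peak alone, called genes were 2 for muscles (H3K27ac), 0 for Ex and 0 for mTg, and 0 for muscles in H3K4me2.

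Leaving out each replicate gave 12 to 21 called H3K27ac regions over muscle pairs, 1 to 4 for Ex, 0 to 2 for mTg and 0 to 3 for untreated pairs (1 without Quad replicate 1 and 3 without Sed replicate 1). In H3K4me2 it gave 3 to 6, 0 to 1 for mTg (0 without Wt replicate 2) and 3 to 5 for untreated pairs (5 without Sed replicate 2). Genes ranged from 13 to 15 and 3 to 4 for muscles and Ex in H3K27ac and from 2 to 3 for muscles in H3K4me2.

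The percentile of the strongest peak ranged over left-out replicates from 90.0 to 91.2 for Six4, 64.8 to 72.1 for Six5, 81.8 to 86.4 for Eya4, 88.4 to 90.5 for Tbx15, 98.7 to 99.1 for Sox6 and 51.0 to 52.7 for Prox1. Without division by width it was 94.3 for Six4, 92.7 for Eya1, 92.8 for Eya4, 99.0 for Tbx15 and 58.1 for Prox1.

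limma calls among the hypoacetylated EMRs were 9 at an authors' adjusted p under 0.001 and 12 to 18 without a replicate. They were 0 when each library was centred over both EMR lists, since 2280 of these 2662 regions are hypoacetylated and the centring removes their shared shift. Hypoacetylated PMR calls were 1 at the stricter p.

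The labels do not say that same-numbered replicates are paired. Over matched H3K27ac regions the correlation of their deviations was 0.1698 to 0.493 in the 6 muscle pairs, and in H3K4me2 -0.03 to 0.05. It was 0.277 for Ex and Sed over the EMR lists and -0.103 for mTg and Wt over the PMR lists. With the replicate block 16 H3K27ac regions and 15 genes were called over the muscle pairs, and 4 regions and 2 genes in H3K4me2. With it limma called 19 hypoacetylated EMRs, 4 hyperacetylated and 3 hypoacetylated PMRs. With crossed pairs the PMR calls were 4 and 3.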
